A study of Homo sapiens with 12 samples.

Results

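The vacuolar ATPase (V-ATPase) and the proteins that fill and bound the lysosome were followed in PANC-1 cells, a human pancreatic cancer line of ductal origin, given either DMSO or rapamycin at 50 nM for 1 h. The members were 30 genes chosen by name from the 20212 genes of the count table. Of these, 16 code for subunits or accessory proteins of the V-ATPase and 14 for other lysosomal proteins. The rule used names only. Each treatment had 3 cultures in complete medium, no agent other than DMSO or rapamycin is named, and each culture gave 1 library of ribosome-protected fragments (RF) and 1 of total RNA. PANC-1 is a single line, and whether its replicates are separate cultures is not stated beyond their numbers, so p-values measure the spread between these samples, which may be technical. These are bulk libraries, so less RNA per cell and fewer cells with that RNA cannot be told apart.

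The V-ATPase is a rotary pump that uses ATP to move protons into lysosomes and other compartments. Its V1 sector sits in the cytosol and splits ATP, and its V0 sector lies in the membrane and carries the protons. The acid it makes is needed by the hydrolases inside the lysosome, which break down proteins, glycogen and lipids. The lysosomal surface is also where the kinase complex mTORC1 is switched on when amino acids are plentiful. Rapamycin inhibits mTORC1. When active, mTORC1 can keep TFEB and its relatives, transcription factors of lysosomal genes, out of the nucleus. Where TFEB lay in these cells, with or without rapamycin, was not measured. The question put to the counts was whether the ribosome load of these mRNAs, or their amount, differed relative to other genes after 1 h.

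TFEB and its relatives bind a short palindrome whose core is CACGTG, and the sequences around it are shown to place that core in the promoters that hold it. RefSeq promoters of GRCh38.p14, from 250 bases before to 50 bases after the start, were found for 21 of the 30 genes. No entry was found for ATP6V0E1, ATP6V1A, ATP6V1B2, ATP6V1C1, ATP6V1H, CTSB, HEXA, LAMP2 and PSAP. The core occurred in 8 of the 21. Of these 8, ATP6V0B and CTSD hold the core without the longer form TCACGTGA. Each line gives the strand of the gene 5′ to 3′, with the core in capitals. Where a promoter held several cores, one with the full letters TCACGTGA is shown, or otherwise the one nearest the start.
ATP6V0B (chr1:43974912-43974935, plus strand): ccggcgcatCACGTGggcgagtta
ATP6V0D1 (chr16:67481202-67481225, minus strand): ccttatggtCACGTGaggcgcttg
ATP6V1G1 (chr9:114587702-114587725, plus strand): ctgtgcggtCACGTGacaacgggg
CTSA (chr20:45891301-45891324, plus strand): gccggagttCACGTGactcgtaca
CTSD (chr11:1763960-1763983, minus strand): ggccgcgccCACGTGaccggtccg
GAA (chr17:80101496-80101519, plus strand): aggccgcgtCACGTGacccaccgc
LAMP1 (chr13:113297202-113297225, plus strand): ccgcgggatCACGTGacgcccggg
MCOLN1 (chr19:7522574-7522597, plus strand): agaggcggtCACGTGaggggctct

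The shown cores begin between 25 and 76 bases upstream of the start. A core was present in 3 of 11 V-ATPase promoters (27.3%) and in 5 of 10 promoters of the other lysosomal genes (50.0%), beside 7.43% of all 27305 promoters of the same length. The longer form TCACGTGA was present in 2 and 4 of these promoters, beside 1.04% of all. The core lies inside this longer form, and each reads the same on both strands. A match describes the letters in this window and shows no binding.

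RF libraries held from 278835 to 1574723 counts, and total RNA libraries from 78081241 to 94293744. A gene with 0 counts could have had up to 3, which corresponded to between 2.04 and 9.98 CPM (counts scaled by library size and by TMM factors within a library type) in RF and to at most 0.0388 CPM in total RNA, for counting error only. DMSO culture 1 and rapamycin culture 3 were the shallow RF libraries, with 303220 and 278835 counts. The total RNA libraries of DMSO cultures 1 and 2 stood apart, with 16840 and 16858 genes detected against 19751 to 19847 in the other 4. Over 13329 genes, Spearman's rho between libraries was 0.68 to 0.853 for RF and 0.997 to 0.999 for total RNA. The label of duct cells fitted the markers KRT8, KRT18, KRT19 and SOX9, whose summed total RNA was 7660 to 8040 CPM, although KRT7 was at 5.44 to 6.94. Summed acinar, endocrine, leukocyte and fibroblast markers reached at most 7.53 CPM per list in total RNA. In RF they reached at most 39.0, for the endocrine list in DMSO culture 2, where CHGA read 36.4 CPM against at most 0.325 in total RNA.

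All 30 genes were read by ribosomes in both treatments, and their RF levels spanned more than 2 orders of magnitude. Levels of different genes were compared per length, as RF CPM per kilobase of coding sequence and as FPKM of total RNA. The highest RF level was that of CTSD, or cathepsin D, the main aspartic protease of the lysosome. In DMSO cultures 1, 2 and 3 it was 1227, 1113 and 1266 CPM per kilobase, with a mean of 1202 ± 79.5 (SD, n = 3). PSAP, the precursor of the saposins that help lipid hydrolases reach their substrates, followed at 976 ± 82.9. CTSD lay above PSAP in 6 of 6 cultures on this scale. The order was opposite in FPKM of total RNA, where PSAP stood at 800.5 ± 24.6 and CTSD at 600.2 ± 18.04 in DMSO.

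Together, CTSD and PSAP held 71.5% to 74.6% of the RF signal of the 14 lysosomal genes in every library and 72.5% to 73.4% of their total RNA. Their shares are of summed CPM, so long genes weigh more. LAMP2 and LAMP1, the glycoproteins that line the lysosomal membrane, stood at 244 ± 24.3 and 187 ± 7.62 RF CPM per kilobase in DMSO. CTSB, a cysteine protease, and CTSZ, a carboxypeptidase, stood at 120 ± 27.3 and 78.8 ± 5.03. HEXA, which trims gangliosides, was at 75.1 ± 18.5 and overlapped with CTSZ, and CTSA, a serine carboxypeptidase, was at 63.0 ± 29.2. GLA, the alpha-galactosidase, was at 44.8 ± 6.99, and GLB1, the beta-galactosidase, at 14.1 ± 3.22. NPC1, the membrane protein that exports cholesterol, was at 10.5 ± 6.80, against 67.0 ± 34.4 for its soluble partner NPC2.

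GAA, the glycogen-degrading alpha-glucosidase, had the lowest mean RF level of the 14 in DMSO, at 12.9, 8.80 and 5.71 CPM per kilobase there and 6.10, 5.51 and 3.49 in rapamycin, where the mean of MCOLN1 was the lower one (4.74 against 5.03). NPC1 at 10.5 and GAA at 9.15 ± 3.62 differed by less than their spread. MCOLN1, the lysosomal calcium channel TRPML1, had the lowest total RNA of all 30, at 3.67 ± 0.179 FPKM, and an RF level of 13.1 ± 14.4 that rested on 4, 41 and 7 counts.

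**Figure D1:**
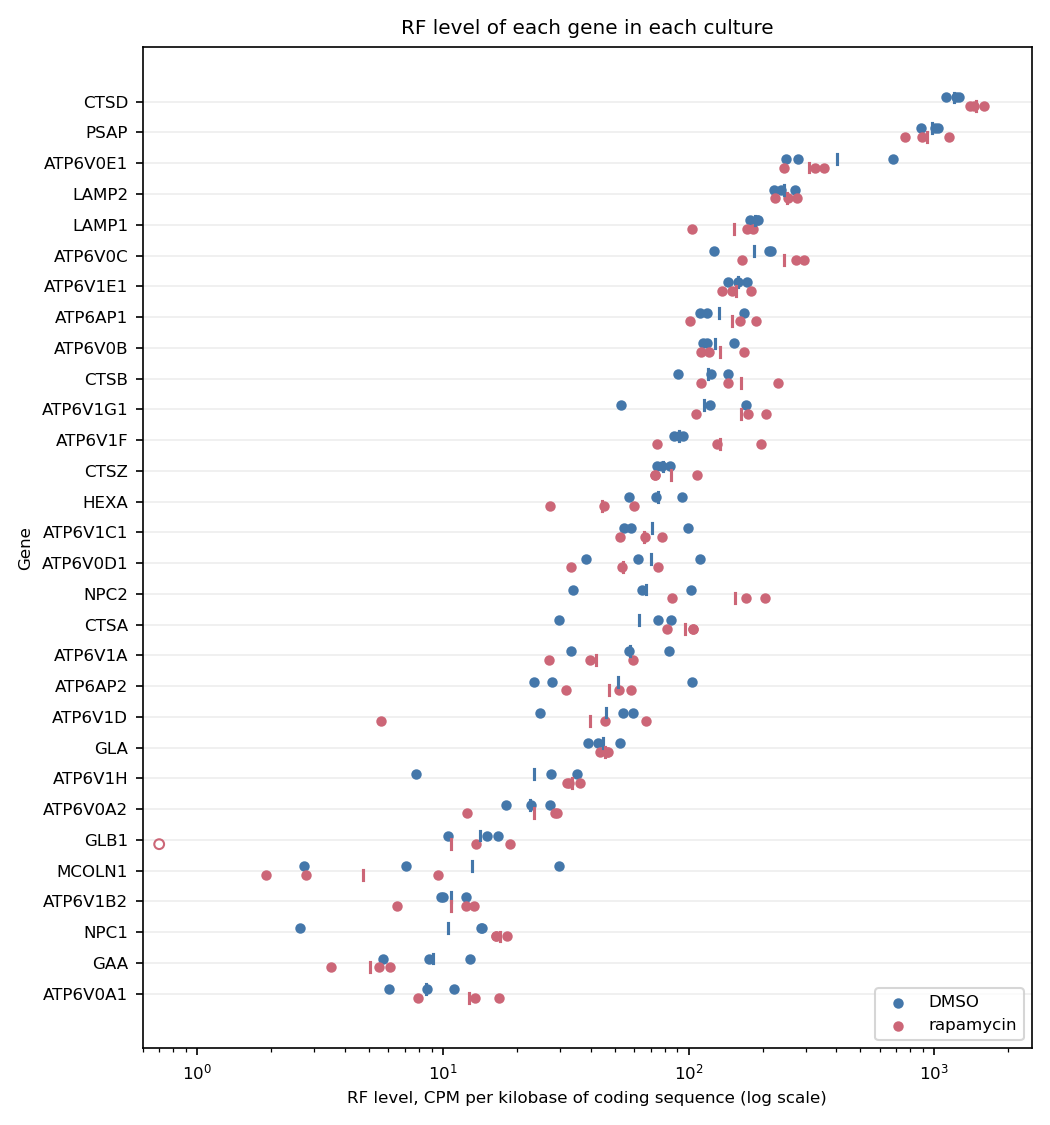
RF level of each of the 30 genes in each culture, as CPM per kilobase of coding sequence on a log axis, with genes ordered by their DMSO mean. Points are cultures (blue DMSO, red rapamycin), short vertical lines are means of 3 cultures, and the open circle marks GLB1 in rapamycin culture 3, which had 0 counts. Levels run from CTSD at 1202 down to ATP6V0A1 at 8.56 in DMSO, and the colours overlap for all but CTSD and NPC1.

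Within the V-ATPase, the RF level was highest for ATP6V0E1, a small subunit of the V0 sector. Its values were 278.5, 248.2 and 679.3 CPM per kilobase in DMSO and 327.5, 244.0 and 355.9 in rapamycin, so DMSO culture 3 lay apart from the other 5. ATP6V0C and ATP6V0B, which code for proteolipids of the proton-carrying ring, stood at 185 ± 50.2 and 129 ± 20.7 in DMSO. The ATP6V0C counts are uncertain, since 76.3% of its exon bases are shared with read-through genes that are counted apart, with 325 and 173 RF counts over all libraries beside 516 for ATP6V0C. ATP6V0D1, which couples the ring to the central stalk, was at 70.4 ± 37.2. The accessory proteins ATP6AP1 and ATP6AP2 were at 132.9 ± 31.04 and 51.4 ± 44.7.

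The lowest V-ATPase level in DMSO was that of ATP6V0A1, one of the alternative forms of the large membrane subunit a. It read 8.58, 6.01 and 11.1 CPM per kilobase there and 16.8, 13.5 and 7.95 in rapamycin, where ATP6V1B2 was lower, at 12.4, 13.4 and 6.51. A second form, ATP6V0A2, was at 22.7 ± 4.55 in DMSO, and TCIRG1, the third form and not one of the 30, at 50.2 ± 9.49. Of the summed RF level of the subunit a forms in DMSO, ATP6V0A1 made up 10.4% ± 2.95, ATP6V0A2 27.7% ± 5.47 and TCIRG1 60.9% ± 9.21 (SD, n = 3). In total RNA by FPKM the corresponding shares were 19.4% ± 0.346, 20.7% ± 1.29 and 59.7% ± 0.929. TCIRG1 thus gave the largest share in 6 of 6 cultures on both scales.

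In the V1 sector, ATP6V1A and ATP6V1B2 code for the subunits A and B, which alternate in equal number in the ATP-splitting head. ATP6V1A stood at 58.0 ± 25.1 RF CPM per kilobase in DMSO and ATP6V1B2 at 10.8 ± 1.43. Their ratio was 3.31, 8.49 and 4.61 in DMSO and 4.79, 2.97 and 4.14 in rapamycin, so A lay above B2 in 6 of 6 cultures. By FPKM the ratio was steadier, 3.29 ± 0.189 in DMSO and 3.37 ± 0.186 in rapamycin. Adding ATP6V1B1, the other form of subunit B and not one of the 30, left an RF ratio of 4.75 ± 3.24 and an FPKM ratio of 3.28 ± 0.180 in DMSO.

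The subunits of the peripheral stalks, ATP6V1E1 and ATP6V1G1, stood at 158.7 ± 14.06 and 115 ± 59.1 RF CPM per kilobase in DMSO. Their RF ratio varied between 0.665 and 2.99 over the 6 cultures, while by FPKM it was 1.49 ± 0.010 in DMSO. ATP6V1F and ATP6V1D, parts of the central rotor, were at 91.3 ± 3.63 and 46.3 ± 18.7. ATP6V1C1, a further subunit of V1, was at 70.7 ± 24.8, and ATP6V1H, which regulates the pump, at 23.5 ± 14.1.

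RF levels followed total RNA over these genes. In DMSO means, Spearman's rho between RF CPM per kilobase and FPKM was 0.80 over the 30 genes, 0.75 over the 16 of the V-ATPase and 0.84 over the other 14. With total RNA also taken per coding kilobase, rho over the 30 was 0.87. These correlations are across genes of the same libraries, both scales share the coding length in part, and genes are not independent replicates. The translation efficiency (TE), the ratio of RF to total RNA CPM, was given on a log2 scale with a prior count of 2. Its DMSO median was -0.44 for the V-ATPase and -0.34 for the other lysosomal genes, beside -0.53 for all 13329 genes tested. It ran from -1.75 for NPC1 to 1.72 for ATP6V0C, and the exon sharing described above bears on the ATP6V0C value. The NPC1 value was drawn down by DMSO culture 2, at -3.27 from 8 RF counts. DMSO cultures 1 and 3 gave -1.02 and -0.96.

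**Figure D2:**
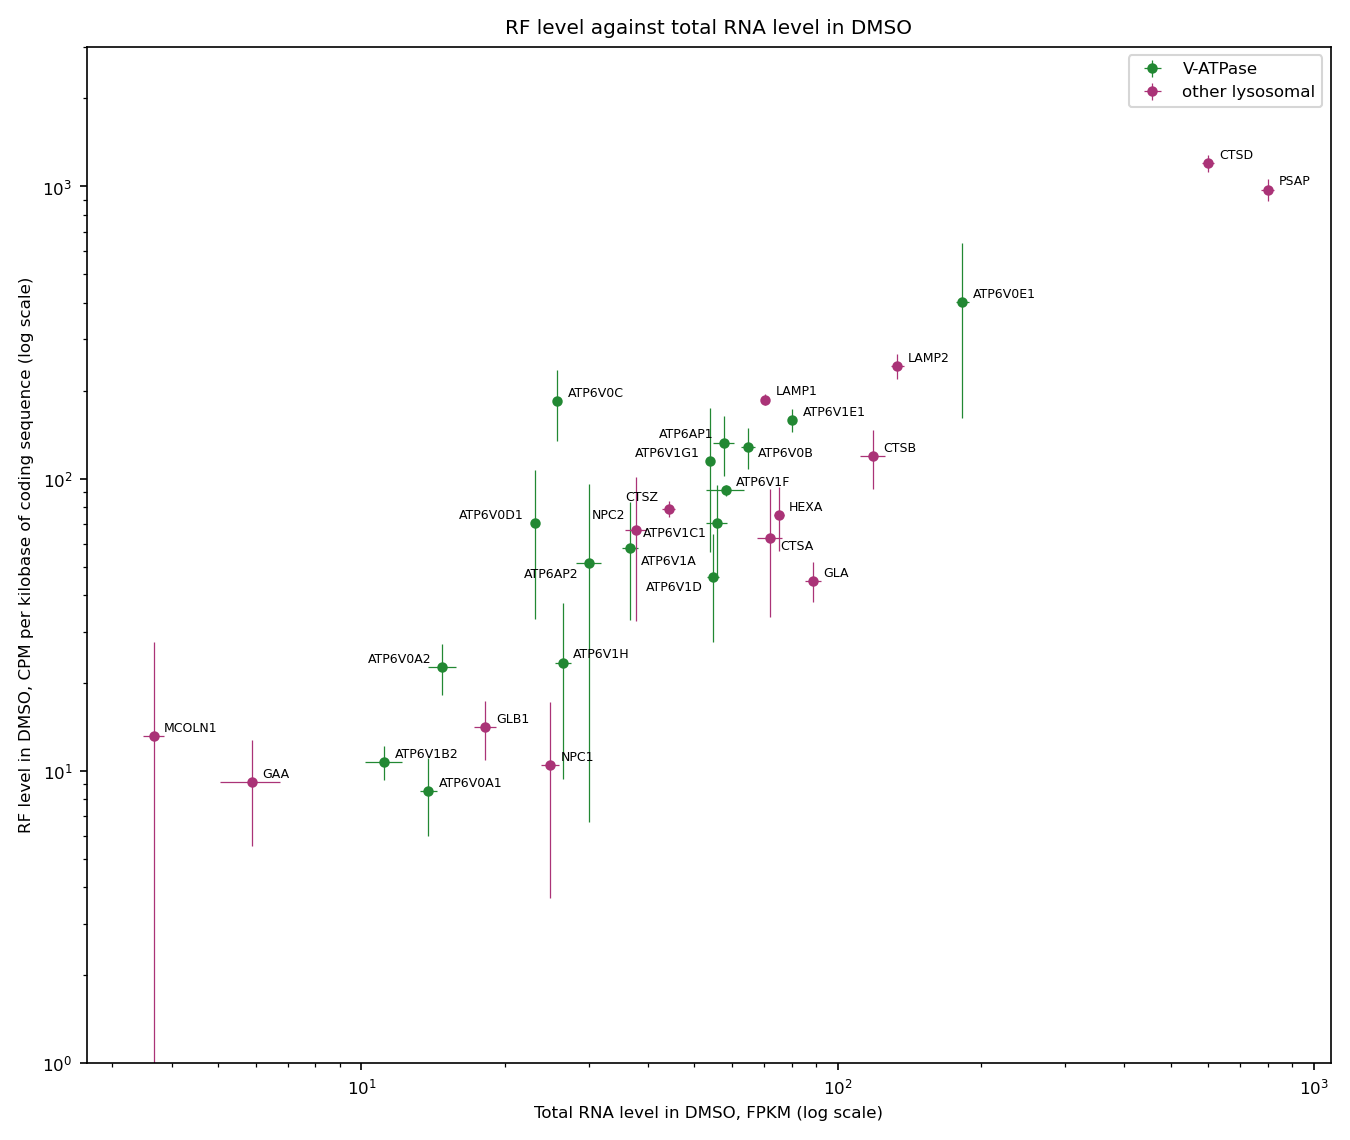
RF level in CPM per kilobase of coding sequence against total RNA level in FPKM, both in DMSO and on log axes. Points are means of 3 cultures and bars are SDs, with the lower bar of MCOLN1 running off the axis, since its SD of 14.4 exceeds its mean of 13.1. The genes rise together with a rho of 0.80, and ATP6V0C lies above and NPC1 and GLA lie below most genes of like FPKM.

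Rapamycin left the summed RF signal of the V-ATPase within the spread of the cultures. The 16 genes summed to 1058, 1108 and 1170 RF CPM in DMSO and 1186, 1096 and 1141 in rapamycin. For the 14 other lysosomal genes the sums were 4039, 4053 and 4395 in DMSO and 4774, 4508 and 4185 in rapamycin. Both sets of sums overlapped between treatments. In total RNA the V-ATPase sum was 1271 ± 18.3 CPM in DMSO and 1258 ± 15.9 in rapamycin, and the lysosomal sum 5590 ± 131 and 5625 ± 59.5.

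No gene of the 30 passed an adjusted p of 0.05 in TE, RF or total RNA when p-values of edgeR's quasi-likelihood test were adjusted by Benjamini-Hochberg over all 13329 genes. The same held for the whole table, with 0% called lower and 0% higher in each of the 3 tests and a smallest adjusted p of 0.18 in TE, 0.0509 in RF and 0.766 in total RNA. At an unadjusted p under 0.05, 1 of the 30 was higher in TE and 0 were lower, beside 6.17% and 6.42% of all genes. In RF, 1 was higher and 0 lower, beside 1.76% and 1.92%. In total RNA 0 were higher and 0 lower, beside 3.32% and 2.51%. By DESeq2's Wald test with Benjamini-Hochberg adjustment, CTSD and ATP6V1F were called higher in TE, among 1253 genes called in all (9.4% of those tested). No member was called in RF or total RNA by that test. Its TE fit shared 1 dispersion per gene between the library types, a limit described below.

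In TE the median log2 fold change was 0.04 over the V-ATPase genes and 0.03 over the other lysosomal genes, beside -0.06 over all genes tested. Lower values were estimated for 7 of 16 and 6 of 14. In RF the medians were 0.02 and 0.04, beside 0.02 for all genes. In total RNA they were -0.02 and 0.02, beside 0.01, and 10 of 16 V-ATPase genes but 4 of 14 lysosomal genes had a value below 0.

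The precision differed widely between the library types. For total RNA, the 95% interval of the fold change lay within 1.5-fold for all 30 genes, between log2 values of -0.23 and 0.34. For TE the interval lay within 2-fold for 13 of the 30 and within 1.5-fold for 4, and the bounds reached from -2.88 to 2.09. The median SE was 0.378 in TE, 0.403 in RF and 0.039 in total RNA. Changes in TE smaller than these intervals were therefore not detectable for most genes. The TE fits of edgeR and of DESeq2 each used 1 dispersion per gene for both library types. The common coefficient of variation was 54.9% in RF but 5.31% in total RNA when edgeR fitted them apart. The TE intervals, which are edgeR's, may thus be too narrow, and the TE p-values of both fits too small. In voom with a separate variance per library type, 0 members had an unadjusted p under 0.05 in TE, beside 6.74% of all genes.

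**Figure D3:**
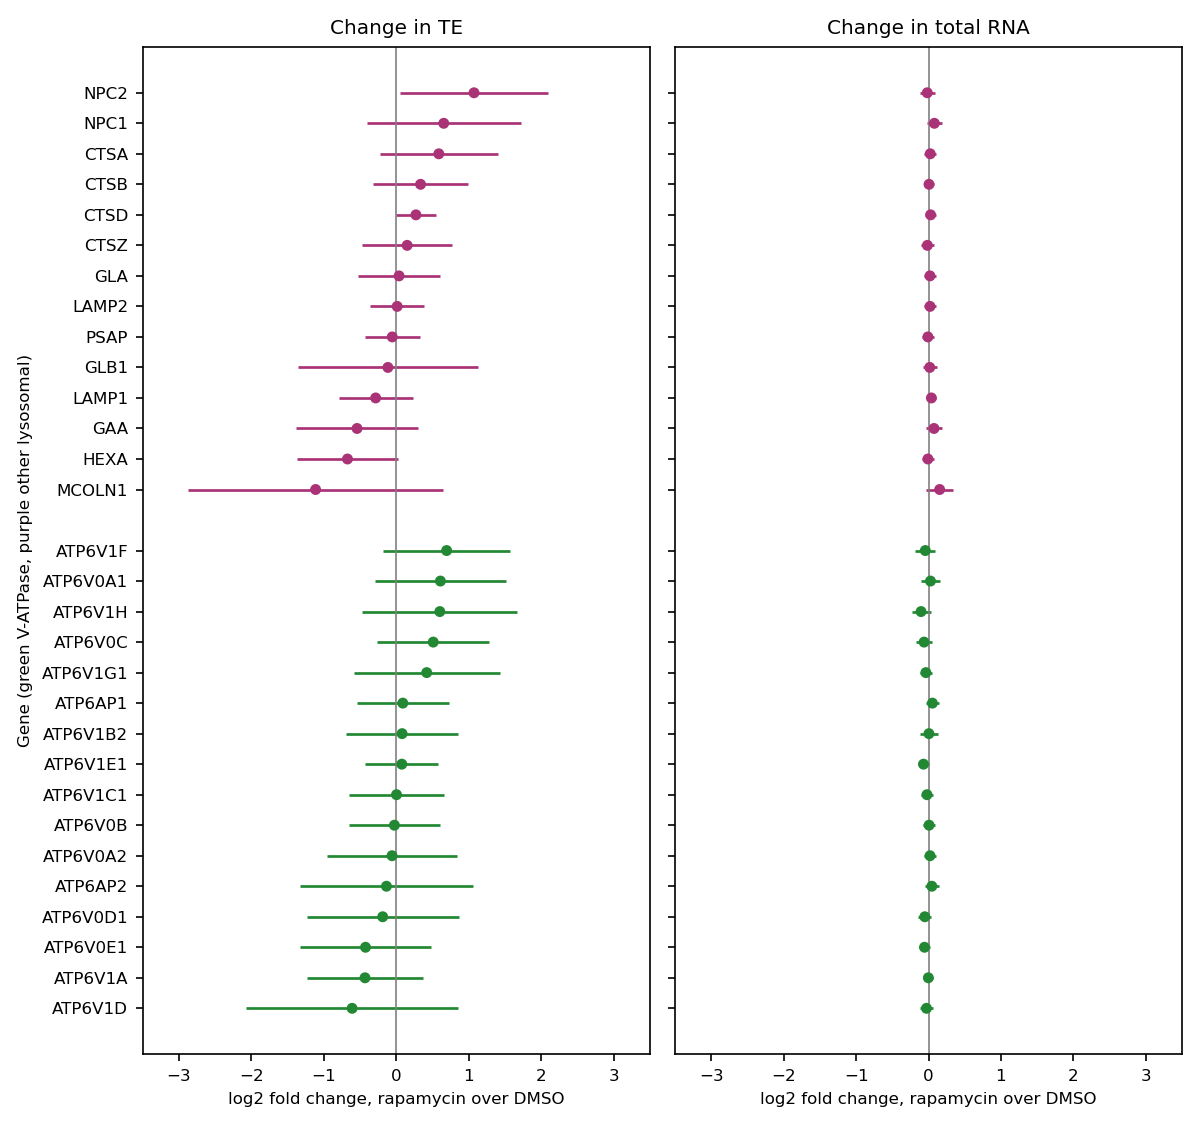
Log2 fold change of rapamycin over DMSO for each gene, in TE (left) and total RNA (right), on the same axis. Points are edgeR estimates, bars are 95% intervals, green marks the V-ATPase and purple the other lysosomal genes. In TE the estimates run from -1.11 for MCOLN1 to 1.07 for NPC2 and only the interval of NPC2 leaves out 0, while in total RNA all estimates lie between -0.10 and 0.15 and every interval includes 0.

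Cathepsin D was the gene whose cultures separated in both RF and TE. CTSD (ENSG00000117984, chr11:1773982-1785803, minus strand, GRCh37) read 1517, 1376 and 1565 RF CPM in DMSO, from 493, 1095 and 2304 counts. In rapamycin it read 1733, 1962 and 1796 RF CPM, from 2091, 1621 and 540 counts. Every rapamycin culture lay above every DMSO culture, and total RNA overlapped, at 1338, 1361 and 1311 CPM in DMSO and 1326, 1391 and 1375 in rapamycin. Log2 TE was 0.18, 0.02 and 0.26 in DMSO and 0.39, 0.50 and 0.39 in rapamycin. The log2 fold change in TE was 0.27 ± 0.13 (SE), with an interval of -0.01 to 0.55, an unadjusted p of 0.0555 and an adjusted p of 0.407 by Benjamini-Hochberg in edgeR's quasi-likelihood test. DESeq2's Wald test gave the same size in TE, 0.27, with an adjusted p of 0.00577 that may be too small for the reason given above. For CTSD in RF, edgeR's quasi-likelihood test gave a log2 fold change of 0.301 ± 0.182 (SE) and an unadjusted p of 0.117. Its RF interval ran from -0.083 to 0.685. Of its exon bases, 22.9% are shared with a read-through gene that held 88 RF counts beside 8144 for CTSD.

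Separation of 3 cultures from 3 was common over the table and was read against that share. In TE, CTSD was the 1 member of 30 higher without overlap and 0 were lower, beside 4.80% and 6.19% of all genes. In RF, CTSD and NPC1 were the 2 higher and 0 were lower, beside 5.24% and 4.21%. In total RNA, LAMP1 was higher and ATP6V0E1 and ATP6V1E1 were lower, beside 8.22% and 6.61%. A two-sided exact permutation test of 3 against 3 cannot go below p = 0.1.

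NPC2, the soluble cholesterol carrier of the lysosome lumen (ENSG00000119655, chr14:74942895-74960880, minus strand), gave 5, 37 and 43 RF reads in the DMSO cultures against 94, 32 and 28 in rapamycin. The corresponding log2 TE values were -0.92, 0.50 and -0.02 in DMSO and 1.22, 0.37 and 1.54 in rapamycin. Rapamycin culture 2 fell within the DMSO range, and the 2 other rapamycin cultures lay above it. The log2 fold change in TE was 1.07 ± 0.48 (SE), with an interval of 0.06 to 2.09, an unadjusted p of 0.0402 and an adjusted p of 0.372 by Benjamini-Hochberg in edgeR's quasi-likelihood test. The RF change was 1.13 with an unadjusted p of 0.0388 in the edgeR fit, and total RNA differed by -0.02.

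HEXA (ENSG00000213614, chr15:72633265-72668761, minus strand), the alpha subunit of the ganglioside-degrading hexosaminidase, was estimated lower. Its RF level was 117, 150 and 91.0 CPM in DMSO and 72.1, 95.6 and 43.2 in rapamycin, the last from 13 counts. Log2 TE was -0.26, -0.04 and -0.67 in DMSO and -1.01, -0.60 and -1.68 in rapamycin. DMSO culture 3 and rapamycin culture 2 crossed, so the treatments overlapped. The log2 fold change in TE was -0.67 ± 0.33 (SE), with an interval of -1.37 to 0.02 and an adjusted p of 0.414 by Benjamini-Hochberg in edgeR's quasi-likelihood test.

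NPC1, the membrane partner of NPC2, gave 18, 8 and 81 RF reads in the DMSO cultures against 84, 52 and 19 in rapamycin. In CPM these were 55.4, 10.1 and 55.0 against 69.6, 62.9 and 63.2. The rapamycin cultures lay just above DMSO cultures 1 and 3, and DMSO culture 2 lay far below all of them. The log2 fold change in RF was 0.72 ± 0.53 (SE), and it was 0.24 without DMSO culture 2 and 1.09 without DMSO culture 3. Log2 TE overlapped, at -1.02, -3.27 and -0.96 in DMSO and -0.77, -0.99 and -0.83 in rapamycin. Total RNA was 117, 120 and 112 CPM in DMSO and 123, 130 and 117 in rapamycin, a log2 difference of 0.08 that was 0.04 without rapamycin culture 2 and turned to -0.04 when FPKM was used.

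MCOLN1, the channel that releases calcium from lysosomes, had the largest SE in TE of the 30 genes. Its RF counts were 4, 41 and 7 in DMSO and 20, 4 and 1 in rapamycin, and DMSO culture 2 alone held more than the other 5 together. The TE interval ran from -2.88 to 0.65 around an estimate of -1.11. Its total RNA, by contrast, was 6.57, 7.06 and 6.61 CPM in DMSO and 7.30, 8.31 and 6.93 in rapamycin, where rapamycin culture 3 fell within the DMSO range. The log2 difference in total RNA was 0.15 ± 0.08 (SE) with an unadjusted p of 0.0883 in the edgeR fit, the largest estimate of the 30 genes in this test. Without rapamycin culture 2 it was 0.08.

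PSAP and LAMP2, which had many RF counts, gave narrow intervals around 0. For PSAP, log2 TE was -1.0005, -0.816 and -0.6882 in DMSO and -0.62, -0.91 and -1.20 in rapamycin, with a fold change of -0.06 and an interval of -0.44 to 0.33. For LAMP2 the values were -0.36, -0.50 and -0.20 against -0.36, -0.41 and -0.22, with a fold change of 0.01 and an interval of -0.36 to 0.38. The treatments overlapped in both genes.

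**Figure D4:**
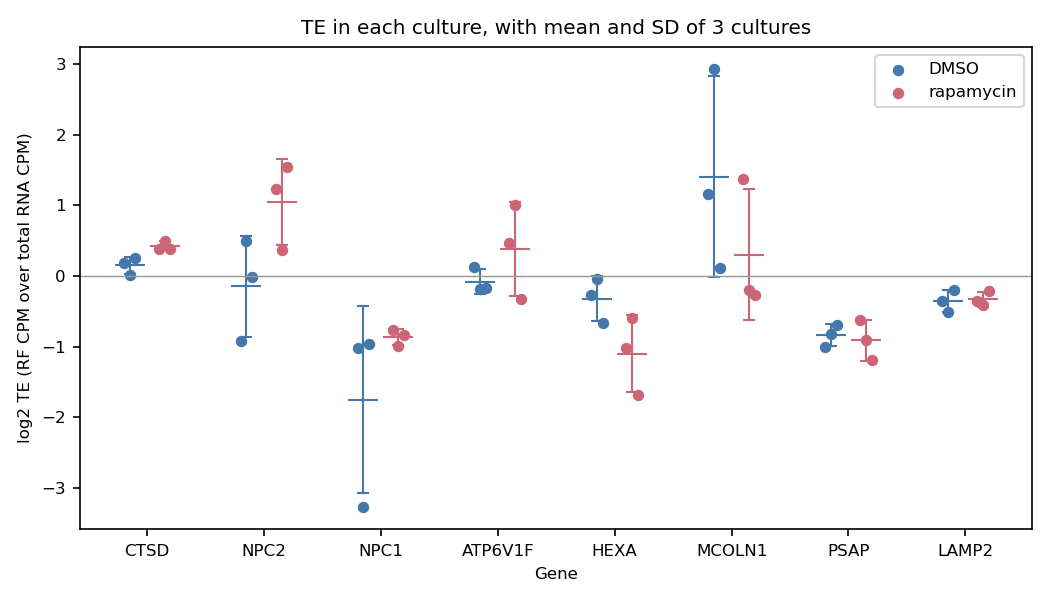
Log2 TE of 8 genes in each culture (blue DMSO, red rapamycin), with horizontal bars for the mean and error bars for the SD of 3 cultures. The CTSD points separate, from 0.02 to 0.26 in DMSO and 0.39 to 0.50 in rapamycin, while the points of the other 7 genes overlap between treatments and MCOLN1 has the widest spread of these 8 in both treatments.

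LAMP1 showed a small separation in total RNA and none in RF. Its total RNA was 199.1, 201.6 and 200.3 CPM in DMSO and 209.3, 201.8 and 207.0 in rapamycin. The nearest values of the treatments were almost equal. The log2 difference was 0.04 ± 0.03 (SE), with an unadjusted p of 0.197 in the edgeR fit. Its RF was 239.9, 222 and 238 CPM in DMSO and 217, 229 and 129.7 in rapamycin. The lowest RF value came from rapamycin culture 3, at 39 counts.

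The remaining lysosomal hydrolases gave no separation. CTSA, the protective protein of the galactosidase complex, had a TE change of 0.59, CTSB of 0.34, CTSZ of 0.15, GLA of 0.04, GLB1 of -0.12 and GAA of -0.54, all with intervals that include 0. GLB1 had 0 RF counts in rapamycin culture 3, which allows up to 9.98 CPM there, beside 38.1 and 27.8 CPM in the other 2 rapamycin cultures. For CTSZ, 31.7% of exon bases are shared with NELFCD, and whether counting used strand is not stated.

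Among the V-ATPase genes, the smallest p in TE was that of ATP6V1F (ENSG00000128524, chr7:128502910-128505901, plus strand), a rotor subunit of V1. It gave 11, 26 and 46 RF reads in the DMSO cultures against 56, 58 and 8 in rapamycin. Log2 TE was 0.12, -0.18 and -0.17 in DMSO and 0.47, 1.01 and -0.32 in rapamycin. Rapamycin culture 3, the shallowest, lay under every DMSO culture, and the other 2 lay above them. Of its exon bases, 20.6% are shared with KCP. The log2 fold change in TE was 0.70 ± 0.41 (SE), or 0.45 without rapamycin culture 2, with an interval of -0.18 to 1.57 and an adjusted p of 0.503 by Benjamini-Hochberg in edgeR's quasi-likelihood test. DESeq2's Wald test gave 0.74 with an adjusted p of 0.0404 that may likewise be too small.

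ATP6V1D, the central shaft, stood at the other end with a TE change of -0.61. Its RF counts were 6, 32 and 65 in DMSO and 5, 28 and 15 in rapamycin. The value in rapamycin culture 1, 4.15 CPM from a library of 1255675 counts, lay far under the 33.9 and 49.9 CPM of the other 2 rapamycin cultures. The treatments overlapped, and the interval ran from -2.07 to 0.85.

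The other V1 genes had TE changes of 0.60 for ATP6V1H, 0.42 for ATP6V1G1, 0.08 for ATP6V1B2, 0.08 for ATP6V1E1, 0.00 for ATP6V1C1 and -0.43 for ATP6V1A. The V0 genes had 0.61 for ATP6V0A1, 0.51 for ATP6V0C, -0.03 for ATP6V0B, -0.06 for ATP6V0A2, -0.19 for ATP6V0D1 and -0.42 for ATP6V0E1. The accessory proteins had 0.09 for ATP6AP1 and -0.14 for ATP6AP2. Every one of these 14 intervals includes 0, so neither sector was set apart from no change.

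In total RNA the largest V-ATPase differences were small and mostly lower. ATP6V1E1, of the peripheral stalk, read 125.0, 125.1 and 122.6 CPM in DMSO and 122.3, 113.9 and 119.1 in rapamycin, without overlap. Its log2 difference was -0.07 ± 0.04 (SE), with an unadjusted p of 0.0756 and an adjusted p of 0.766 by Benjamini-Hochberg in edgeR's quasi-likelihood test. ATP6V0E1 also did not overlap, at 110.8, 109.8 and 106.3 CPM in DMSO and 103.2, 105.5 and 105.9 in rapamycin, with a log2 difference of -0.06. ATP6V1H read 54.7, 48.9 and 53.4 against 51.8, 45.1 and 49.2, which overlapped, with a difference of -0.10. Without rapamycin culture 2, the differences were -0.04 for ATP6V1E1 and -0.05 for ATP6V1H. Without DMSO cultures 1 and 2, whose total RNA libraries stood apart, the differences were -0.05 for ATP6V1E1, -0.02 for ATP6V0E1, -0.13 for ATP6V1H, 0.04 for LAMP1, 0.14 for NPC1 and 0.18 for MCOLN1. The DMSO group was then 1 culture, assumed to vary like the others.

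Total RNA changes overlapped between genes with and without the promoter core. Every total RNA interval of the 30 genes included 0 and 9 genes had no promoter entry, so whether TFEB acted was not tested. The 8 genes with CACGTG had log2 differences from -0.05 to 0.15 with a median of 0.03. The 13 with a promoter entry and no core ranged from -0.07 to 0.08 with a median of 0.02. The highest value among the 8, 0.15 for MCOLN1, was 0.08 without rapamycin culture 2.

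Isoform FPKM gave the makeup of a few transcripts. LAMP2 has alternative last exons that set its membrane tail. Isoform ENST00000200639 held 36.9%, 36.8% and 35.1% of the gene's FPKM in DMSO and 38.3%, 37.9% and 37.9% in rapamycin, without overlap. Isoform ENST00000371335 held 33.7% ± 0.680 and 33.5% ± 1.05 (SD, n = 3). ENST00000433655, a nonsense-mediated decay isoform of CTSD, held 38.9% ± 0.969 in DMSO and 40.3% ± 0.22 in rapamycin, also without overlap. Isoforms of ATP6V0A2, ATP6V1D, GLB1, MCOLN1 and NPC1 separated too, in either direction, with a lower share for ENST00000587163 of NPC1. The isoforms of CTSD and NPC1 were picked after their values had been seen. No test across isoforms was run, and the share of all isoforms that separated was not taken. The annotated isoforms of LAMP2 held 73.7% of its FPKM in DMSO. For ATP6V0A1, the leading coding isoforms ENST00000264649 and ENST00000393829 held 26.7% ± 3.22 and 22.2% ± 2.10 in DMSO and 24.53% ± 2.999 and 22.7% ± 3.55 in rapamycin. For ATP6V0A2, the full coding isoform ENST00000330342 held 23.67% ± 2.198 in DMSO and 24.78% ± 1.004 in rapamycin, and transcripts without a defined coding sequence, ENST00000536426 and ENST00000540368, held 30.6% ± 2.56 and 26.7% ± 0.472 in DMSO.

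A wider list of 90 other lysosomal genes was read beside the 30, made of further V-ATPase subunits and assembly factors, hydrolases and activators, membrane proteins and the mannose 6-phosphate sorting system. Of these, 79 were tested and 11 had too few counts. In TE, 39 had values below 0 and 40 above, 12 reached an unadjusted p under 0.05 (6 lower and 6 higher, beside 6.42% and 6.17% of all genes), and 0 had an adjusted p under 0.05. At the same unadjusted threshold, RF gave 1 lower and 3 higher, beside 1.92% and 1.76% of all genes, and total RNA 1 lower and 1 higher, beside 2.51% and 3.32%.

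TMEM55B, a lysosomal membrane protein that takes part in lysosome positioning, had the smallest p of that list in TE. Its RF counts were 7, 47 and 109 in DMSO and 19, 10 and 1 in rapamycin, or 21.5, 59.1 and 74.0 CPM against 15.8, 12.1 and 3.33. Its total RNA was 15.6, 18.7 and 16.4 CPM in DMSO and 16.6, 16.5 and 15.9 in rapamycin. In RF the treatments did not overlap, with rapamycin lower, as in 4.21% of all genes, and total RNA overlapped. The log2 fold change in TE was -2.22 ± 0.43 (SE), with an unadjusted p of 0.000134 and an adjusted p of 0.18 by Benjamini-Hochberg in edgeR's quasi-likelihood test.

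SGSH, which removes sulfate from heparan sulfate, had the next smallest p in TE. It gave 10, 8 and 9 RF reads in the DMSO cultures against 42, 40 and 2 in rapamycin. In CPM these were 30.8, 10.1 and 6.11 against 34.8, 48.4 and 6.65, so DMSO culture 1 lay close to rapamycin culture 1. The fit gave a log2 fold change in TE of 1.67 and an adjusted p of 0.238 by Benjamini-Hochberg in edgeR's quasi-likelihood test. Rapamycin culture 3 fell within the DMSO range in RF CPM. Total RNA of SGSH differed by 0.09 on the log2 scale. In the edgeR fit the unadjusted p was 0.0402 and the adjusted p 0.766 by Benjamini-Hochberg. VMA21, an assembly factor of the V0 sector, read 55.4, 40.2 and 88.3 RF CPM in DMSO and 138, 98.0 and 106 in rapamycin. The rapamycin values were higher without overlap, as in 5.24% of all genes. The unadjusted p of VMA21 was 0.0313 in the edgeR fit, and 0 genes of the wider list had an adjusted p under 0.05 in RF. TMEM199, another V-ATPase assembly factor, read 19.2, 19.5 and 19.4 CPM of total RNA in DMSO and 17.5, 17.9 and 18.7 in rapamycin. For TMEM199 the edgeR fit gave an unadjusted p of 0.0485 and an adjusted p of 0.766 by Benjamini-Hochberg.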

How the data were processed

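The authors deposited raw counts of RF and total RNA reads per gene. Per the paper's methods, RF reads were quality filtered, trimmed of linker, freed of short and ribosomal RNA reads, aligned to GRCh37 with HISAT2, and counted with featureCounts where they aligned uniquely to exons of a protein-coding gene. The same table holds the authors' RiboDiff comparison, which was not used. By that comparison the paper reports many mRNAs lower and many higher in TE at a q under 0.05, unlike the edgeR test used here. The authors also deposited FPKM values of genes and isoforms from Cufflinks 2.2.1 (cuffnorm), per the submitters' processing notes. Multimapped reads are lost, which lowers genes with close copies (ATP6V0C, ATP6V0E1, ATP6V1E1 and ATP6V1G1 have annotated pseudogenes), and reads in UTR exons count.

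Samples were grouped by their labels. Tests used edgeR 4.0.16, DESeq2 1.42.0 and limma 3.58.1 under R 4.3.3, and tables were made with pandas 2.3.3 under Python 3.11.15. Genes with at least 10 RF and 10 total RNA counts in sum were tested. TMM factors were set within each library type. The TE change was the treatment by library type interaction in edgeR's quasi-likelihood fit (robust), and each library type was also tested alone. Benjamini-Hochberg adjustment ran over all 13329 genes. The scripts were tested on simulated counts. Coding lengths and overlaps come from the GENCODE annotation of GRCh37, matched by Ensembl identifier.

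The members, lists and tests were chosen with earlier results of these data known. Values in every culture are given for members whose treatments do not overlap in TE, RF or total RNA, for the 4 with the smallest p in TE and in total RNA, and for the highest and lowest RF level in each group. Of the wider list, the 2 with the smallest p in each test are named. LAMP2, ATP6V0A1 and ATP6V0A2 were fixed for isoforms. PSAP, LAMP2, ATP6V1D, TCIRG1 and ATP6V1B1 were given values after these had been seen. The isoforms of CTSD and NPC1, and the other genes with separated isoforms, were named likewise. Alternatives were other size factors and count filters, DESeq2, voom, blocks, left-out cultures and FPKM.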

Additional observations from a re-analysis of the deposited data

How the results depend on the processing

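Beside edgeR's quasi-likelihood test, DESeq2's Wald test called 2 members higher in TE, CTSD (0.27, adjusted p = 0.00577) and ATP6V1F (0.74, adjusted p = 0.0404), beside 9.4% of all genes. That fit shared 1 dispersion per gene between the library types, so these p-values may be too small. Every other setting tried in TE, RF or total RNA called 0 of the 30. Without DMSO culture 3, edgeR's test called 396 genes of the table in TE (3.18%), 0 of them members. In TE 8 members then had an unadjusted p under 0.05, beside 23.3% of all genes, and the smallest adjusted p of a member was 0.0837. In total RNA the same setting called 687 genes (5.51%), 0 of them members. It leaves DMSO cultures 1 and 2, whose total RNA libraries stood apart, as the DMSO group. The cause was not tested.

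With one culture left out at a time, the median log2 fold change of V-ATPase genes in RF ranged from -0.02 to 0.15, and in TE from 0.02 to 0.10. For the other lysosomal genes it ranged from -0.04 to 0.08 in RF and from -0.03 to 0.10 in TE. With TMM over all libraries the TE medians were -0.04 and -0.05. Without DMSO culture 1 and rapamycin culture 3, a setting chosen after seeing the data, the V-ATPase medians were 0.12 in RF and 0.19 in TE. Leaving out DMSO cultures 1 and 2, also chosen after seeing the data, called 0 members. The total RNA difference of NPC1 turned to -0.04 in all 3 limma-trend fits on FPKM. CTSD stayed between 0.19 and 0.30 in TE and between 0.24 and 0.34 in RF with any one culture left out.

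Replicate numbers are shared between treatments, and the labels do not say whether they pair the cultures. Deviations of same-numbered cultures correlated at -0.118, -0.061 and -0.074 in RF and -0.107, -0.119 and -0.216 in total RNA. Those of different-numbered cultures reached 0.091 in RF and 0.193 in total RNA, so these values do not settle the pairing. With the replicate block, 0 members and 1 gene of the table were called in TE, and GAA, HEXA and MCOLN1 had an unadjusted p under 0.05 in TE, beside 10.5% of all genes.

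RF depth limits these results. In the shallowest library, rapamycin culture 3, a count of 3 came to 9.98 CPM, and GLB1, MCOLN1, ATP6V1B2 and GAA held 3 counts or fewer there.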
